A study of Homo sapiens with 8 samples.

Results

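The effect of a METTL14 hairpin on the transcripts of NB4 cells was measured in 4 of the 8 libraries of the study, 2 for each of 2 groups, and all genes were compared between the groups. NB4 is an established human acute myeloid leukaemia line, known as promyelocytic and as able to mature, although the labels give acute monocytic leukemia. The knockdown group carried shM14-#2, a hairpin against METTL14, and the control group carried shNS, a non-specific (scramble) hairpin. Both groups therefore share lentiviral transduction with a pLKO.1 vector and 2 passages in puromycin at 0.5 µg/mL, and they differ in the hairpin. Cells were lysed in TRIzol, and poly(A) RNA from 100 ng of total RNA was sequenced from directional libraries as single-end reads of 50 bp. Only 1 hairpin was used, so effects of lower METTL14 and of that hairpin on other transcripts cannot be told apart. The labels do not say whether the duplicates were separate cultures, so the p-values cover the spread from library to library, which may be technical.

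METTL14 is the partner of METTL3 in a nuclear methyltransferase whose mark is N6-methyladenosine (m6A) of RNA. METTL3 carries the catalytic activity, and METTL14 holds the RNA and supports the enzyme. Reader proteins bind the mark and influence the decay, translation or processing of the transcript, so transcript levels reflect the mark only indirectly, and m6A itself was not measured here. In NB4 cells METTL14 (gene 57721) was at 14.1 and 12.5 RPKM in the controls and at 8.35 RPKM in both knockdown libraries. RPKM stands for reads per kilobase of gene model, scaled to 1000000 reads assigned to genes. The knockdown libraries were below both controls, and the level fell by 0.61 on the log2(RPKM + 1) scale (SE 0.07, limma adjusted p = 0.0024), so the transcript was lowered and not removed.

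The 4 libraries held 23407250 to 28814911 reads over 16726 listed genes, with 16185 to 16238 genes having a read and EEF1A1 the most abundant. Of the 9 promyelocyte markers, 7 were at 1 RPKM or more in every library, and their summed level was 2673 and 2772 RPKM in controls and 2425 and 2468 RPKM with shM14. MPO, the peroxidase of primary granules, made up most of that sum. Dendritic and erythroid markers were low, with a summed level of 0.509 to 0.605 RPKM for 3 dendritic markers and of 2.07 to 2.48 RPKM for 4 erythroid markers, and HBA1 at 0 reads in all 4 libraries. The 4 B cell markers summed to 13.3 and 12.2 RPKM in controls and 12.4 and 10.2 RPKM with shM14, mostly CD79B. The T cell list came to 45.7 to 47.8 RPKM in controls and 59.3 to 61.6 RPKM with shM14, nearly all of it CD3D. The NK cell list came to 33.7 to 34.9 and 57.9 to 58.5 RPKM, mostly NKG7, which rose, while NCAM1 fell from 3.49 and 3.22 to 2.24 and 2.01 RPKM, and KLRD1 and GNLY stayed under 0.5 RPKM in every library. The part of these markers in the results below was not tested. In bulk RNA, fewer cells of a type and less RNA per cell cannot be told apart.

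The libraries numbered 2 stood apart from those numbered 1 in 2 genes, in both groups alike. ELANE, neutrophil elastase, had 1 read in control replicate 1 and 1 in knockdown replicate 1, against 182 and 148 reads in the replicates numbered 2. APP, the amyloid precursor protein gene, had 1 and 0 reads against 76 and 40. With limits of at most 5 reads in one pair of replicates and at least 30 in the other, 0 genes showed the opposite pattern. Both genes were abundant in the MM6 libraries of the study, at 1599 to 2410 RPKM for ELANE and 161 to 184 RPKM for APP. These genes were picked after their values were seen, and what the pattern contributes to other genes was not tested beyond leaving out each library. It does not follow the hairpin.

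Of 11531 genes tested, 5460 (47.4%) passed the threshold of an adjusted p of 0.05, 2553 higher (22.1%) and 2907 lower (25.2%) with shM14. Most of these changes were small. The median size among genes past the threshold was 0.33 on the log2 scale, 76.8% of them changed by less than 0.5, and the median change over all tested genes was -0.01. The counts depend on the knockdown libraries, with 1334 higher and 1719 lower without knockdown replicate 1 and 1386 and 1881 without knockdown replicate 2. With all 8 libraries in 1 model 758 and 1011 passed. Counts of list members shrank with these totals, by over 1.5 times in 39 of 42 lists with all 8 libraries, in 22 without knockdown replicate 1 and in 19 without knockdown replicate 2. With a filter of 5 RPKM the balance turned, to 2434 higher and 2121 lower.

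At least a 2-fold change was measured for 91 genes higher (0.789% of those tested) and 104 genes lower (0.902%). A fold on the log2(RPKM + 1) scale understates changes of low genes. Among all genes past the threshold, 96 were under 1 RPKM in both controls and at 1 RPKM or more in both knockdown libraries. The reverse held for 209. Such genes were tested only because 1 group passed the filter, so their direction was partly set by it. In the authors' deposited table, 87 of the 91 and 102 of the 104 had an adjusted p under 0.05 and the same direction. The higher genes started low, at a median of 3.47 RPKM in controls, and reached 13.1 RPKM. The lower genes went the other way, from 13.1 to 4.18 RPKM, while all tested genes had medians of 10.6 and 10.5 RPKM. Protein-coding genes made up 81 of the 91 and 93 of the 104. The 13 small RNA entries among them (snoRNA and miRNA genes) had 0 to 22 reads in any library, too few in poly(A) RNA to be read as levels of those RNAs.

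**Figure D1:**
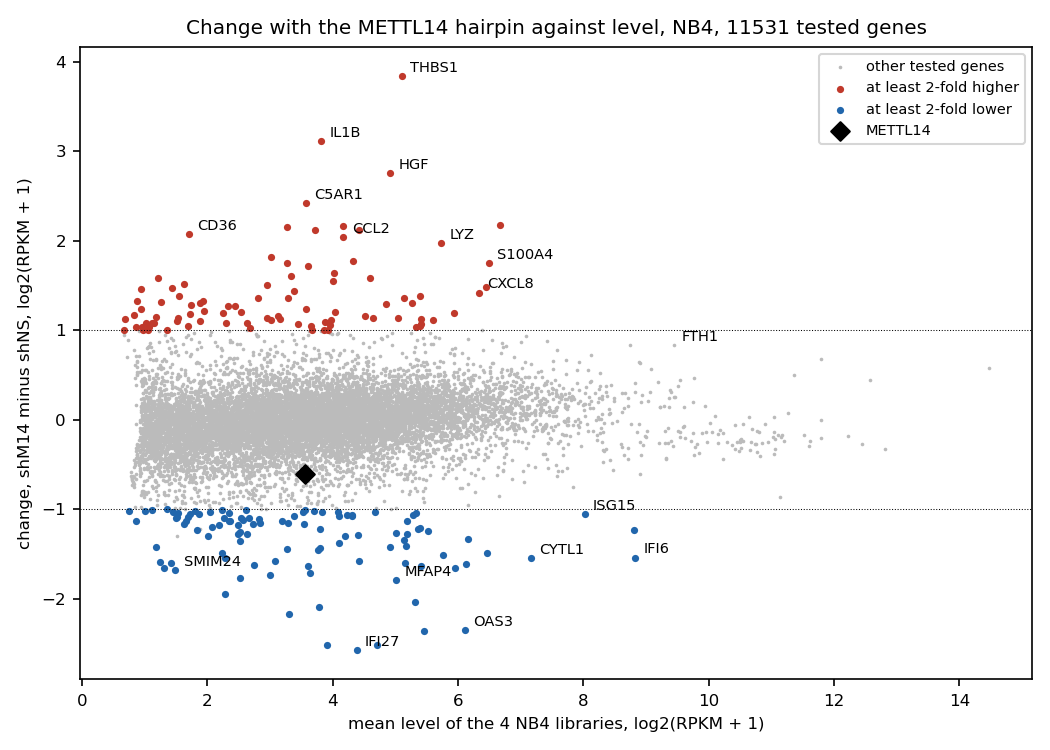
Change with the METTL14 hairpin (vertical axis, shM14 minus shNS on the log2(RPKM + 1) scale) against the mean level of the 4 NB4 libraries (horizontal axis, same scale) for 11531 tested genes. The 91 genes at least 2-fold higher are red, the 104 at least 2-fold lower are blue, METTL14 is a black diamond, and the largest changes lie at low and middle levels.

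The 40 genes with the largest rise and the 40 with the largest fall, each with at least 2 RPKM in its higher group, are the base of what follows. In all 80 the control and knockdown libraries did not overlap, with standard errors between 0.04 and 0.22 and limma adjusted p between 8.6e-05 and 0.0061. These genes were picked by size and adjusted p, so the lack of overlap follows largely from the choice and is no added support. The share of all tested genes without overlap was not counted. The largest rises, in THBS1, IL1B, HGF, C5AR1, ICAM1, SGK1, CHST2, OLIG1, CCL4 and CD36, had changes of 2.07 to 3.84. The genes below them are described by role.

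Genes of secreted signals rose far more often than they fell. Of 30 tested chemokine and cytokine ligands, 18 were higher (60%) and 5 lower (16.7%), against 22.1% and 25.2% of all tested genes. The median change was 0.53, and 13 of the 18 rose at least 2-fold, against 0.789% of all tested genes. Among the 13, CXCL3 and CCL8, like CXCL2 and IL10 below, were under 1 RPKM in both controls. They were tested only through the knockdown libraries, so their direction was partly set by the filter. With all 8 libraries in 1 model, 9 of the ligands were higher and 1 lower. CCL2, the ligand that draws monocytes through CCR2, was at 6.18 and 5.90 RPKM in controls and at 28.7 and 27.3 RPKM with shM14, a change of 2.04. CXCL8, a chemokine that attracts neutrophils, was already abundant in controls, at 43.8 and 41.5 RPKM, and reached 116 and 115 RPKM (1.42). The knockdown libraries were close to each other for both ligands, and no control library came near them. CXCL2, of the same family, went from 0.462 and 0.288 RPKM to 2.49 and 2.34 RPKM (1.32), and was tested only through the knockdown libraries. EBI3, a subunit of heterodimeric interleukins, went from 4.40 and 4.97 to 18.5 and 16.9 RPKM (1.72). The following members were named after their values were seen. IL10, the gene of an anti-inflammatory cytokine, rose by 1.09 and LTB, the membrane partner of lymphotoxin, by 1.21. Like CXCL2, IL10 was under 1 RPKM in both controls. CCL3 rose from a mean of 29.6 to 65.2 RPKM, TNFSF9, the ligand of CD137, from 2.17 to 5.64 RPKM, and CXCL10, the interferon-inducible chemokine, rose by 0.63 while interferon effectors fell. TNFSF13B, the B cell survival factor BAFF, moved against the group, from 19.7 and 18.0 RPKM to 6.77 and 5.75 RPKM (-1.46).

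Among matrix genes, 17 of 36 tested members were higher (47.2%) and 10 lower (27.8%), against 22.1% and 25.2% of all tested genes (median 0.14). In the model with all 8 libraries 7 were higher and 9 lower. SPP1, osteopontin, a secreted phosphoprotein that binds integrins, was at 8.10 and 7.96 RPKM in controls and at 31.0 and 29 RPKM with shM14 (1.78). TNFAIP6, which binds and cross-links hyaluronan at sites of inflammation, is not on the list. It went from 1.26 and 1.36 to 3.91 and 4.87 RPKM (1.22). Both groups of libraries were separate for each gene. Members of the list with the largest falls were MFAP4, COL6A1, COL6A2 and EFEMP2. MFAP4, a microfibril-associated protein, went from 50.0 and 48.6 RPKM to 14.3 and 12.8 RPKM (-1.79). COL6A1, a chain of collagen VI, went from 8.93 and 9.31 to 2.22 and 2.37 RPKM (-1.62). Its partner chain COL6A2 went from 1.78 and 1.88 to 0.491 and 0.350 RPKM, and was tested only through the controls. EFEMP2, a fibulin that assembles elastic fibres, fell by 0.95.

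Receptors of inflammatory signals rose with the ligands. Of 21 tested receptors for chemoattractants and lipid mediators, 14 were higher (66.7%) and 3 lower (14.3%), with a median of 0.23. The shares of all tested genes were 22.1% and 25.2%. In the model with all 8 libraries 8 receptors were higher and 2 lower. PTAFR, the receptor of platelet-activating factor, was at 2.45 and 2.68 RPKM in controls and 11.3 and 11.8 RPKM with shM14 (1.82). EMR1, an adhesion receptor that marks macrophages in mice, was under 0.4 RPKM in both controls and at 1.57 and 1.67 RPKM with shM14. EMR1 was tested only through the knockdown libraries. The nucleotide receptor P2RY6 went the other way, from 1.72 and 1.79 to 0.660 and 0.586 RPKM (-0.76), and was tested only through the controls. Of 14 tested complement genes 9 were higher (64.3%) and 1 lower (7.14%), against the same shares of all tested genes (median 0.43). C3, the central component of the cascade, rose from 6.98 and 7.42 to 15.2 and 15.4 RPKM (0.99), and the receptor of its fragment C3a, C3AR1, rose by 0.78. The one that fell was CD59, the surface inhibitor of the membrane attack complex, which went from 9.43 and 8.94 to 4.19 and 4.05 RPKM (-0.99). CD55, an inhibitor that acts earlier in the cascade, rose by 0.77.

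Surface proteins by which phagocytes recognise microbes and other cells changed in both directions. Of 34 tested pattern recognition receptors and adaptors 12 were higher (35.3%) and 13 lower (38.2%), with a median of -0.06. Of 29 Fc, Siglec and related immunoglobulin-like receptors 12 were higher (41.4%) and 6 lower (20.7%), with a median of 0.05. The shares of all tested genes were 22.1% higher and 25.2% lower. CD180, a Toll-like receptor relative that controls responses to lipopolysaccharide, was at 0.393 and 0.473 RPKM in controls and at 3.17 and 2.82 RPKM with shM14 (1.48). CD86, the costimulatory ligand of CD28, went from 0.716 and 0.546 to 3.23 and 3.24 RPKM (1.38). Both were under 1 RPKM in both controls and were tested only because the knockdown libraries passed that limit. CLEC5A, a lectin receptor of myeloid cells, rose from 4.44 and 4.33 to 11.4 and 10.6 RPKM (1.16), and the shared Fc receptor chain FCER1G from 26.7 and 23.0 to 51.1 and 48.1 RPKM (0.97). IRAK3, an inhibitor of Toll-like receptor signalling, rose by 0.90. SIGLEC1, the sialic acid receptor of macrophages, which interferon is known to induce, fell from 1.61 and 1.48 to 0.298 and 0.300 RPKM (-0.97). SIGLEC1 was tested only through the controls. The galectin LGALS9 fell by 1.17. CARD9, the adaptor of fungal recognition, fell by 0.91 and NLRC3, a NOD-like receptor, by 0.93.

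Adhesion genes rose more often than they fell, with 12 of 32 tested higher (37.5%) and 5 lower (15.6%), and a median of 0.14. The shares of all tested genes were 22.1% and 25.2%. Apart from ICAM1, the integrin chains ITGB2 and ITGB1 rose by 0.78 and 0.65 and ICAM3, a leukocyte ligand of the integrin LFA-1, by 0.73. ITGA2B, the megakaryocyte and platelet integrin chain, fell from 5.83 and 6.34 RPKM to 2.15 and 2.32 RPKM (-1.13). That fall set most of the change in the summed megakaryocyte markers, from 7.71 and 8.77 to 4.02 and 4.26 RPKM.

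Genes of granules and lysosomes did not move one way. LYZ, lysozyme, which digests bacterial cell walls, was at 19.8 and 21.4 RPKM in controls and at 83.4 and 84.6 RPKM with shM14 (1.98). Among the serine proteases of primary granules, PRTN3 rose from 46.1 and 44.1 to 127 and 129 RPKM (1.48), whereas CTSG (cathepsin G) fell from 41.9 and 44.9 to 6.73 and 6.85 RPKM (-2.51). Both come from the same granules, and they changed in opposite directions. AZU1, an inactive relative of these proteases, fell by 0.26 and MPO by 0.20. EPX, the eosinophil peroxidase, went from 1.73 and 2.18 to 5.73 and 6.54 RPKM (1.27), and HDC, which makes histamine, from 30.8 and 27.3 to 54.1 and 57.2 RPKM (0.92), while PRG2, the eosinophil major basic protein, fell from 326 and 314 to 276 and 270 RPKM (-0.23). The summed level of the 6 mast cell and eosinophil markers was 360 and 346 RPKM in controls and 338 and 336 RPKM with shM14. Lysosomal CTSA and CTSD rose by 1.16 and 0.92, and the inhibitors CST7 and SERPINB1, which act on cathepsins and on granule proteases, fell by 1.28 and 0.93. DEFA4, a defensin, fell from 3.11 and 1.57 RPKM to 0.231 and 0.195 RPKM (-1.42, SE 0.22), with controls that differed from each other. DEFA4 was tested only through the controls.

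Intracellular calcium-binding and signalling genes were also among the largest rises. S100A4, a calcium-binding protein tied to cell motility, was at 41.1 and 39.5 RPKM in controls and at 141 and 135 RPKM with shM14 (1.75), and its neighbour S100A6 went from 22.3 in both controls to 60.8 and 59.1 RPKM (1.39). S100A10, the partner of annexin A2, moved against them, from 73.2 and 67.1 to 47.9 and 47.1 RPKM (-0.55), while ANXA2 itself rose by 0.84. S100A9, whose controls were at 0.666 and 2.16 RPKM, passed narrowly (0.97, adjusted p = 0.047) and did not pass with a pseudocount of 0.1 or with no filter. PIM1 and PIM2, serine kinases that promote survival, went from 10.8 and 11.3 to 35.0 and 35.2 RPKM (1.58) and from 20.7 and 21.9 to 54.1 and 53.8 RPKM (1.30). Of 48 tested MAPK feedback, phosphatase and G protein regulator genes, 26 were higher (54.2%) and 9 lower (18.8%), with a median of 0.20. The shares of all tested genes were 22.1% and 25.2%. In the model with all 8 libraries 8 of the 48 were higher. The phosphatase DUSP2, which inactivates MAP kinases, rose by 1.04. IER3, an immediate early gene that is not on the list, rose from 2.96 and 3.05 to 10.3 and 10.5 RPKM (1.51).

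**Figure D2:**
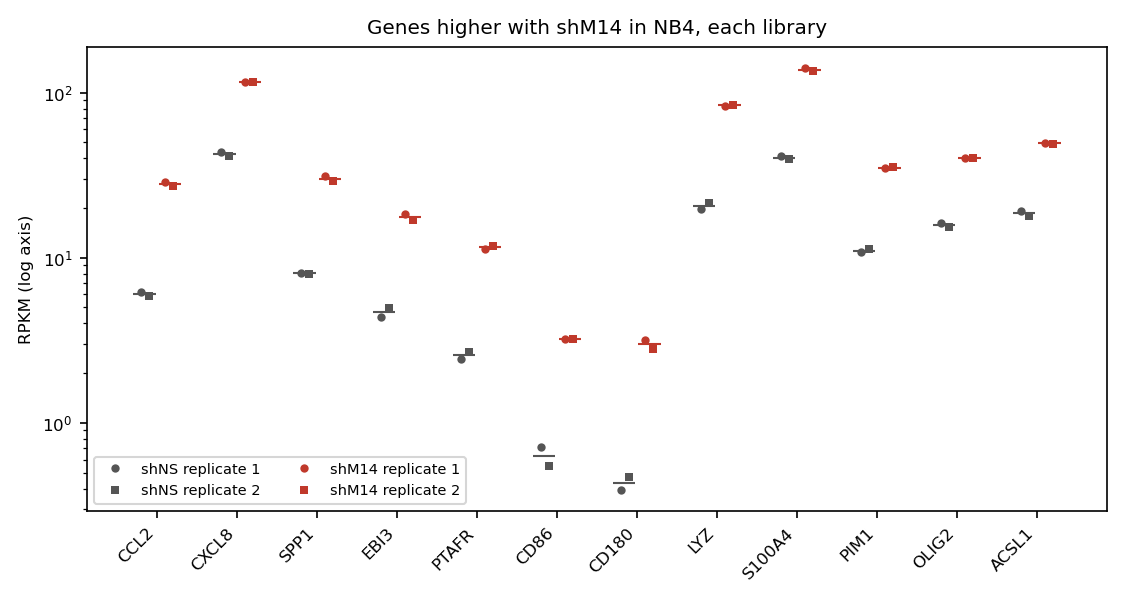
Level in each library (RPKM, log axis) of 12 genes that were higher with shM14, with grey points for shNS, red points for shM14, circles for replicate 1, squares for replicate 2 and lines for the group means. The knockdown points lie above the control points for every gene, from CD180 at 3.17 and 2.82 RPKM to S100A4 at 141 and 135 RPKM.

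The list of transcription factors of blood cells was drawn up with earlier results of these data known. It holds OLIG1 and OLIG2, which are among its 4 members at least 2-fold higher, and its median change was 0.11. Of its 56 tested members 22 were higher (39.3%) and 10 lower (17.9%), against 22.1% and 25.2% of all tested genes. The count was 14 higher without knockdown replicate 1 and 7 with all 8 libraries in 1 model. OLIG2, a factor best known from oligodendrocytes, went from 16.2 and 15.3 to 40.01 and 39.99 RPKM (1.29), next to OLIG1. IKZF2, the lymphoid factor Helios, went from 0.470 and 0.347 to 2.00 and 2.25 RPKM (1.15), and was tested only through the knockdown libraries. GATA2, a progenitor and mast cell factor, rose by 0.83 and the repressor BCL6 by 0.95. BCL6, like IKZF2, was tested only through the knockdown libraries. BCL3, a nuclear partner of NF-kB that is not on the list, went from 3.25 and 2.62 to 9.26 and 8.93 RPKM (1.36). Of 7 tested HOX genes 3 fell (42.9%) and 0 rose by limma, against 25.2% and 22.1% of all tested genes. A list of 7 is too small to tell these shares apart. The count of higher HOX genes was also 0 at an unadjusted p under 0.05 and by voom on recovered reads. HOXA10, which marks immature myeloid cells, fell from 11 and 10.4 to 5.49 and 4.97 RPKM (-0.91).

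Metabolic genes that rose at least 2-fold included those of fatty acid uptake and activation. ACSL1, which couples fatty acids to coenzyme A, was at 19.3 and 18.0 RPKM in controls and at 49.8 and 49.1 RPKM with shM14 (1.36). FADS1, a fatty acid desaturase, rose by 0.91, and PTGS1, the constitutive cyclooxygenase, fell from 5.37 and 5.65 to 1.92 and 2.19 RPKM (-1.09). SLC2A6, a glucose transporter family member, went from 3.57 and 4.40 to 13.8 and 14.4 RPKM (1.61). SOD2, the mitochondrial superoxide dismutase, rose from 36.0 and 36.7 to 86.9 and 82.2 RPKM (1.20) and CYBB, the catalytic subunit of the phagocyte NADPH oxidase, from 27.2 and 25.4 to 57.3 and 55.5 RPKM (1.07). NCF4, a cytosolic subunit of the same oxidase, fell by 0.76. Of 34 tested metal-handling genes 21 were higher (61.8%) and 3 lower (8.82%), against 22.1% and 25.2% of all tested genes (median 0.31). In the model with all 8 libraries 8 were higher and 1 lower. FTH1, the ferritin heavy chain, rose from 505 and 491 to 896 and 885 RPKM (0.84), and TFRC, the transferrin receptor, from 122 and 119 to 220 and 224 RPKM (0.88). CYBRD1, a ferric reductase, went the other way, from 15.3 and 15.1 to 9.02 and 8.73 RPKM (-0.71).

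Smaller but frequent rises were measured in genes of large machines. The regulatory particle subunits PSMD1 (0.75) and PSMD11 (0.65) led the proteasome subunit genes, whose median change was 0.20. Of the 46 tested, 26 were higher (56.5%) and 2 lower (4.35%), against 22.1% and 25.2% of all tested genes. That count was 11 higher without knockdown replicate 1, 14 without knockdown replicate 2 and 5 with all 8 libraries in 1 model. The interferon-inducible catalytic subunits, counted with antigen processing below, went down instead. Of 71 tested actin, tubulin and motor genes 37 were higher (52.1%) and 15 lower (21.1%), against the same shares of all tested genes (median 0.18). VASP, which promotes actin filament growth, rose from 24.7 and 26.8 to 58.9 and 56.1 RPKM (1.13). Of 74 mitochondrial ribosomal protein genes 25 were higher (33.8%) and 7 lower (9.46%), with a median of 0.14. With all 8 libraries in 1 model 4 of the 74 were higher and 0 lower. Of the 11531 tested genes 758 were higher in that model, so the excess of rises over all genes was not kept. Other housekeeping lists were near or under the shares of all tested genes, 22.1% higher and 25.2% lower. Splicing factors had 17 higher (22.7%) and 8 lower (10.7%) of 75, and translation factors 14 (25.5%) and 12 (21.8%) of 55. DNA repair genes had 9 (11.8%) and 17 (22.4%) of 76, and histone and DNA modifying enzymes 16 (18.6%) and 22 (25.6%) of 86.

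Interferon-induced genes were the largest listed group among those that fell. Type I interferon acts through receptor-bound kinases and transcription factors that bind the interferon-stimulated response element (ISRE) in promoters of antiviral genes. Of 67 tested further interferon-induced effectors, 61 fell (91.0%) and 0 rose, against 25.2% and 22.1% of all tested genes. The median change was -0.92, and 30 of them fell at least 2-fold, against 0.902% of all tested genes. Like the other lists, this one was chosen with earlier results of these data known, so its one-sided count is no independent support. Across the alternatives the count of lower members was 57 to 63, apart from 48 with all 8 libraries in 1 model. The count of higher members was 0 as well at an unadjusted p under 0.05 and by voom on recovered reads.

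STAT2, a transcription factor of the interferon response, fell from 51.6 in both controls to 23.5 and 24.7 RPKM (-1.06). The sensor of viral RNA DDX58 (RIG-I) fell from 95.6 and 90.5 to 29 and 28.8 RPKM (-1.65), and the related sensor IFIH1 by 0.98. Control cells carried high levels of these transcripts, and the knockdown libraries kept a lower, still measurable level. Of 34 tested genes of JAK, STAT and interferon signalling, 18 were lower (52.9%) and 5 higher (14.7%), with a median of -0.18. The shares of all tested genes were 25.2% and 22.1%. In the model with all 8 libraries 9 were lower and 1 higher. ISG15, a ubiquitin-like modifier, fell from 331 and 369 to 171 and 165 RPKM (-1.05), its conjugating enzyme UBE2L6 from 98.9 and 104 to 39.9 and 39.8 RPKM (-1.33), its ligase HERC5 from 48.9 and 50.4 to 18.9 and 19 RPKM (-1.34), and its protease USP18 by 0.98. The modifier, the genes that attach it and the gene that removes it were all lower.

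Many of the effectors act on viral RNA or on its copying. OAS2, OAS3, MX1 and IFIT2 were among the largest falls of all genes, at -2.36, -2.34, -2.09 and -2.04. OAS1, which makes the messenger that activates RNase L, went from 106 and 103 to 32.4 and 34.5 RPKM (-1.61). IFIT1, which binds the ends of foreign RNA, went from 65.0 and 62.2 to 19.5 and 20.3 RPKM (-1.63). RSAD2 (viperin) went from 11.2 and 11.4 to 2.77 and 2.63 RPKM (-1.73), and the neighbouring nucleotide kinase CMPK2 from 52.6 and 52.2 to 17.2 and 16 RPKM (-1.60). SAMHD1, which depletes deoxynucleotides, fell from 30.5 and 31.8 to 9.43 and 10.2 RPKM (-1.58). IFI6, the most abundant of the listed effectors that fell at least 2-fold, fell from 662 and 688 to 238 and 225 RPKM (-1.54). TRIM22, an antiviral ubiquitin ligase, fell from 82.5 and 75.1 to 26.7 and 27.4 RPKM (-1.51). Of the TRIM family as a whole 15 of 32 tested were lower (46.9%) and 3 higher (9.38%), against 25.2% and 22.1% of all tested genes. The family median was -0.21, and TRIM71, known from early development, rose by 0.85.

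Further genes of this response, some of which did not fall, were looked at after the values were seen. IFITM1, IFITM2 and IFITM3, membrane proteins that block viral entry, had changes of -0.24, 0.04 and -0.00 and did not pass. IFNB1, the interferon beta gene, fell by 0.73. IRF8, a monocyte and dendritic factor, rose by 0.80 while IRF7 and IRF1 fell by 0.92 and 0.55.

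Genes of antigen presentation by MHC class I fell more often than they rose. Of 22 tested genes 15 were lower (68.2%) and 4 higher (18.2%), against 25.2% and 22.1% of all tested genes. The median was -0.33, and with all 8 libraries in 1 model 9 were lower and 1 higher. The immunoproteasome subunit PSMB9 fell from 5.63 and 5.97 to 2.40 and 2.22 RPKM (-1.04), the peptide transporter TAP1 from 5.28 and 5.66 to 2.61 and 2.76 RPKM (-0.81), and HLA-B from 74.4 and 76.1 to 47.5 and 47.7 RPKM (-0.65). Reads of HLA genes can be shared between close relatives, which makes single members less certain. PDIA3, a chaperone that helps load peptides, rose from 78.8 and 76.7 to 140 and 137 RPKM (0.83). MHC class II genes were mostly low, with 2 of 6 tested lower (33.3%) and 0 higher by limma. A list of 6 is too small to set beside the shares of all tested genes. The count of higher members was 1 both at an unadjusted p under 0.05 and by voom on recovered reads.

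The promoters of the 4 largest falls that hold an ISRE match are printed because interferon-induced genes led the genes that fell. Each is 300 bases of RefSeq sequence (GRCh38.p14), from 250 bases before to 50 bases after the annotated start, read 5′ to 3′ on the strand of the gene. Capitals mark the letters GAAANNGAAA or, on the other strand, TTTCNNTTTC.
IFI27 (chr14:94110486-94110785, plus strand): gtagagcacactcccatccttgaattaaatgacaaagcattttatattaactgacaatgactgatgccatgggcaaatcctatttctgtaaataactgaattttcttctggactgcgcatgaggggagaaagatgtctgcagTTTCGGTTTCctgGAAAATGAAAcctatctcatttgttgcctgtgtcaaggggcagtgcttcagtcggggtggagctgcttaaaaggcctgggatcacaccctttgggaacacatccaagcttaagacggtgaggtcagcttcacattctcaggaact
IFI44 (chr1:78649539-78649838, plus strand): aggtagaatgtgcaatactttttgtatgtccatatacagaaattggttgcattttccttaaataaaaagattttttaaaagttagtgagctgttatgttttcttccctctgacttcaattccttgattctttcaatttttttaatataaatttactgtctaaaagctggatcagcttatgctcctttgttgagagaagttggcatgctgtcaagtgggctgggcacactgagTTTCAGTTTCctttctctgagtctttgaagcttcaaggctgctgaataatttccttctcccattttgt
OAS3 (chr12:112938224-112938523, plus strand): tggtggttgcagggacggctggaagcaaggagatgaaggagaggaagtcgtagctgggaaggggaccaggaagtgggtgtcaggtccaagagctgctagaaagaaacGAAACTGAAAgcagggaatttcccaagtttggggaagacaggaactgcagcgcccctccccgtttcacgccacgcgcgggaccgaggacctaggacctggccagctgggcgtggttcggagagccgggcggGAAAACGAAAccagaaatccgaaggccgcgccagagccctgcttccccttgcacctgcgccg
LGALS3BP (chr17:78979874-78980173, minus strand): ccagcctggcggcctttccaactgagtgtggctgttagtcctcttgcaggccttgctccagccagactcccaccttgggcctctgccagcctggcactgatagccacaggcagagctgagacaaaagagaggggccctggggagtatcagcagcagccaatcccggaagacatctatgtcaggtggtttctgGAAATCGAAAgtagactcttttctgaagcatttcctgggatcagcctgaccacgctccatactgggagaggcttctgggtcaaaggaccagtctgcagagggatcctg
The IFI27 promoter, of a small interferon-induced mitochondrial protein, held matches beginning 108 and 95 bases before the start, and that of OAS3 matches beginning 143 and 12 bases before it. IFI44 and LGALS3BP, a secreted galectin-binding glycoprotein, held 1 match each, beginning 18 and 58 bases before the start. RefSeq promoters were matched for 9126 of the 11531 tested genes. The letters occurred in 21 of the 76 matched genes at least 2-fold lower (27.6%), in 4 of the 67 at least 2-fold higher (5.97%) and in 263 of all tested (2.88%). The share was 3.58% among genes lower by less than 2-fold, 2.14% among those higher by less than 2-fold, 2.43% among genes that did not pass, and 3.65% over all 27305 promoters of the table. These shares are descriptions, and their differences were not tested. The AP-1 letters TGANTCA, searched in the same way, occurred in 8 of 67 higher genes (11.9%), 1 of 76 lower genes (1.32%) and 4.18% of all tested. The kappa-B motif was as frequent in higher (16.4%) as in lower genes (17.1%), against 12.8% of all tested, and the PU.1 letters GAGGAAGT occurred in 2.99%, 3.95% and 2.66%. A match describes the letters in this window and nothing about binding.

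Falls outside the interferon response were found in genes of varied function. CYTL1, a secreted cytokine-like protein first known from CD34+ progenitors, was at 215 and 212 RPKM in controls and at 72.9 and 71.7 RPKM with shM14 (-1.55), from place 215 to place 844 by level among tested genes. IL17RE, a receptor chain of the interleukin-17 family, went from 7.08 and 7.36 to 2.40 and 2.06 RPKM (-1.35), TNFRSF25, a death-domain receptor, from 6.81 and 6.96 to 2.61 and 2.75 RPKM (-1.10), and CSF3R, the G-CSF receptor of granulocytes, from 15.2 and 14.4 to 7.38 and 7.25 RPKM (-0.93). Among 50 tested growth factor and cytokine receptors 21 were higher (42%) and 15 lower (30%), against 22.1% and 25.2% of all tested genes. The median was 0.06, so these falls were not the direction of the list. IL10RA, the receptor chain for IL10, rose from 4.23 and 3.92 to 10.1 and 9.94 RPKM (1.12), as its ligand did.

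Several of the genes that fell were close to lost. SMIM24, a small membrane protein, went from 3.29 and 3.25 RPKM to 0.275 and 0.399 RPKM (-1.68), PTPN3, a tyrosine phosphatase, from 2.83 and 2.70 to 0.166 and 0.232 RPKM (-1.65), GABRD, a GABA receptor subunit, from 3.08 and 2.94 to 0.371 and 0.272 RPKM (-1.60), and CHAT, which makes acetylcholine, from 2.56 in both controls to 0.209 and 0.167 RPKM (-1.58). None of the 4 was abundant in controls, and in each the knockdown libraries were under 0.4 RPKM. They were tested only because the controls passed 1 RPKM. The imprinted non-coding RNA H19 went from 6.48 and 6.97 to 1.06 and 0.966 RPKM (-1.94). Growth regulators among the falls included BIK, a pro-apoptotic BCL2 relative, from 5.69 and 6.19 to 1.61 and 1.35 RPKM (-1.48), NOG, the antagonist of bone morphogenetic proteins, from 7.27 and 6.58 to 2.17 and 2.36 RPKM (-1.28), and ADM, the peptide adrenomedullin, from 7.31 and 8.25 to 2.49 and 2.74 RPKM (-1.28).

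**Figure D3:**
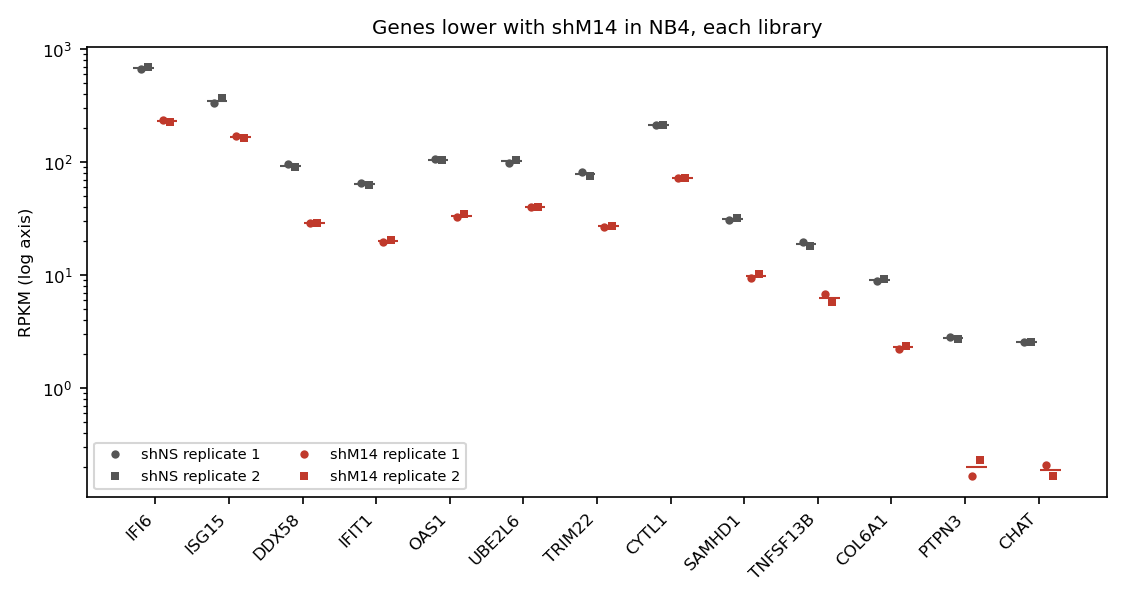
Level in each library (RPKM, log axis) of 13 genes that were lower with shM14, with grey points for shNS, red points for shM14, circles for replicate 1, squares for replicate 2 and lines for the group means. The knockdown points lie below the control points for every gene, from IFI6 at 238 and 225 RPKM to CHAT at 0.209 and 0.167 RPKM.

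NB4 cells are known to mature with retinoic acid, and the retinoid list was counted for that reason. Of 14 tested genes 8 were lower (57.1%) and 3 higher (21.4%), against 25.2% and 22.1% of all tested genes (median -0.23). In the model with all 8 libraries 2 were lower and 0 higher. CD38, an ectoenzyme that retinoic acid strongly induces in such cells, went from 8.57 and 8.59 to 3.59 and 5.11 RPKM (-0.85), DHRS3, a retinaldehyde reductase, from 1.17 in both controls to 0.290 and 0.327 RPKM (-0.73), and RARRES3, named for its induction by retinoids, from 3.80 and 2.59 to 1.68 and 1.79 RPKM (-0.60). DHRS3 was tested only because the controls passed 1 RPKM. UBE2L6 and PML, which are on this list, are also induced by interferon. PML fell by 0.58. Among the members that rose, DOK2 went from 0.748 and 0.941 to 1.31 and 1.43 RPKM (0.37), and was tested only through the knockdown libraries. CEBPE, a factor of granulocyte maturation, fell by 0.30.

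**Figure D4:**
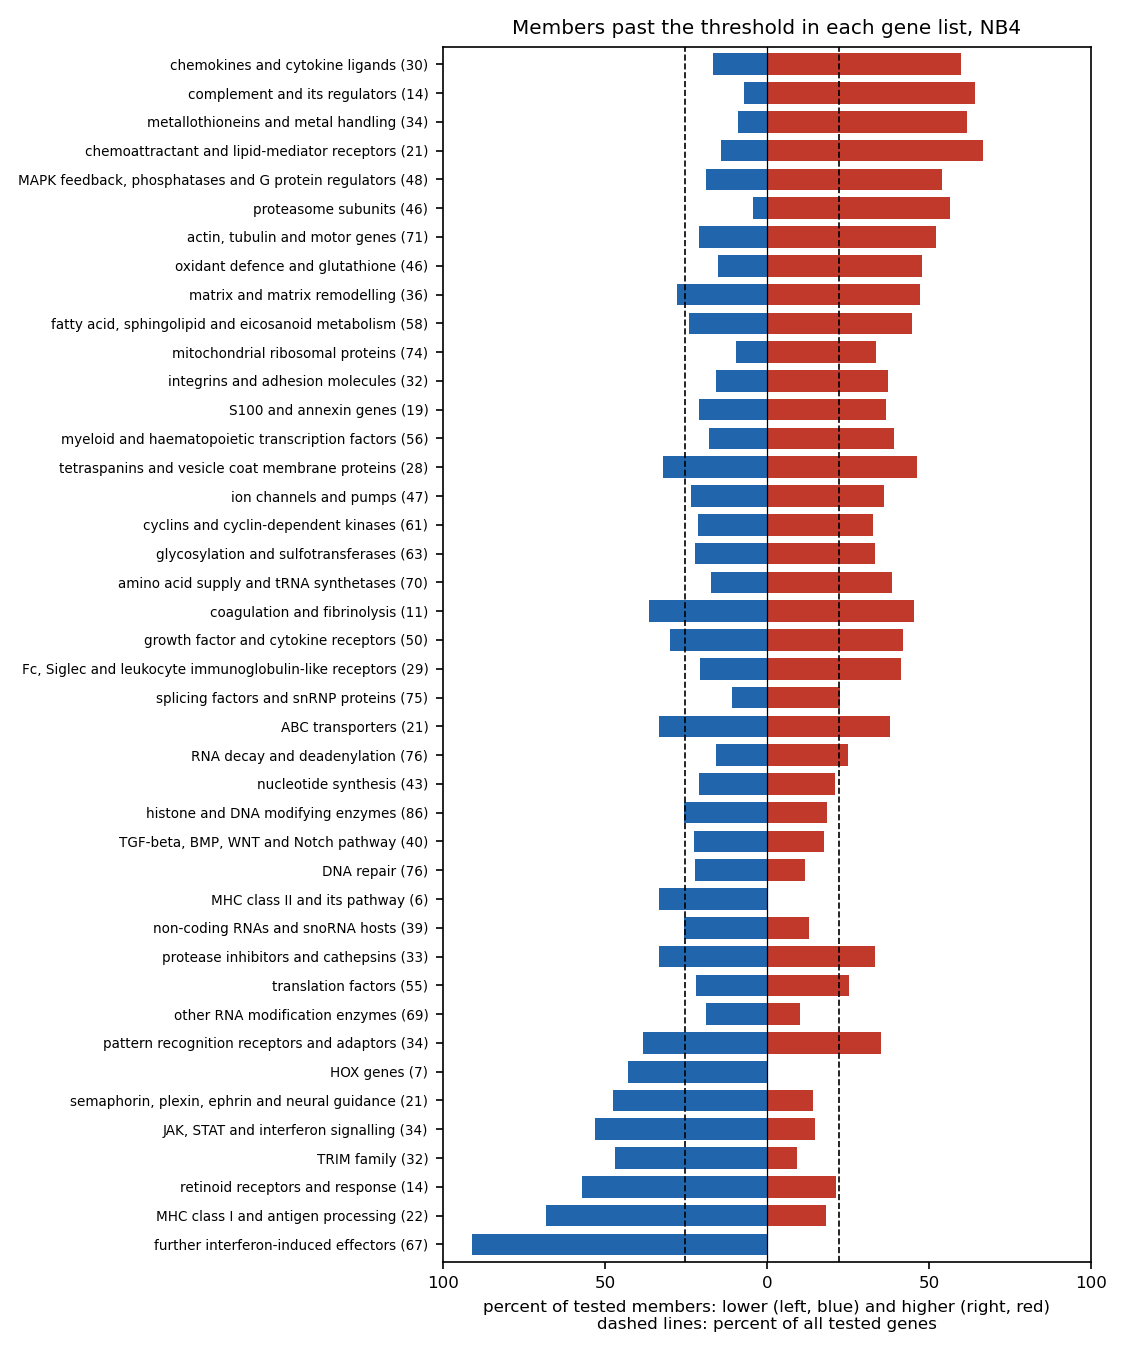
Share of tested members past the threshold (percent, lower to the left in blue, higher to the right in red) in each gene list with at least 5 tested members, the number tested in brackets, ordered by median change. Dashed lines mark the shares of all tested genes, 25.2% lower and 22.1% higher. The interferon effectors (61 of 67 lower) are at the bottom and chemokines and cytokine ligands (18 of 30 higher) at the top.

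Of 69 tested RNA modification enzymes other than the m6A genes, 7 were higher (10.1%) and 13 lower (18.8%), against 22.1% and 25.2% of all tested genes (median -0.05). The largest change was in APOBEC3G, an interferon-induced cytidine deaminase, which fell by 0.89. Of 76 RNA decay genes 19 were higher (25.0%) and 12 lower (15.8%), with a median of 0.02, and 6 and 6 without knockdown replicate 1. BTG2, which recruits the deadenylase, rose from 7.59 and 7.31 to 16.6 and 15.4 RPKM (1.01). ZC3H12A (Regnase-1), which cuts inflammatory transcripts, rose from 14.9 and 15.0 to 27.7 and 28.2 RPKM (0.86), and ZFP36, which binds AU-rich elements of cytokine transcripts, by 0.70. PAN2, a deadenylase subunit, fell by 0.73.

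Some of the changed genes lie side by side. Of the 91 higher genes 14 lay in 6 runs of adjacent tested genes that were all at least 2-fold higher, and of the 104 lower genes 22 lay in 10 such runs, by the RefSeq gene order. The longest run of higher genes was CXCL8, CXCL6, CXCL3 and CXCL2, with changes of 1.03 to 1.42, and other pairs were CCL2 with CCL8, CCL3 with CCL4, S100A6 with S100A4, OLIG2 with OLIG1, and CD36 with HGF. CXCL6, CXCL3, CXCL2, CCL8 and CD36 were under 1 RPKM in both controls and were tested only through the knockdown libraries. The lower runs held mostly interferon families, IFIT2 with IFIT3 and IFIT1, OAS1 with OAS3 and OAS2, IFI44L with IFI44, CMPK2 with RSAD2, HERC6 with HERC5 and DDX60 with DDX60L. Pairs of unrelated function were CHAT with OGDHL, an enzyme related to the oxoglutarate dehydrogenase, and PNCK, a kinase, with SLC6A8, the creatine transporter. CHAT, OGDHL and PNCK were under 1 RPKM in both knockdown libraries and were tested only through the controls. The pair MIR3671 and AK4 rests in part on a small RNA entry with few reads. Members of a family with close sequence can share reads, so their values are not independent.

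**Figure D5:**
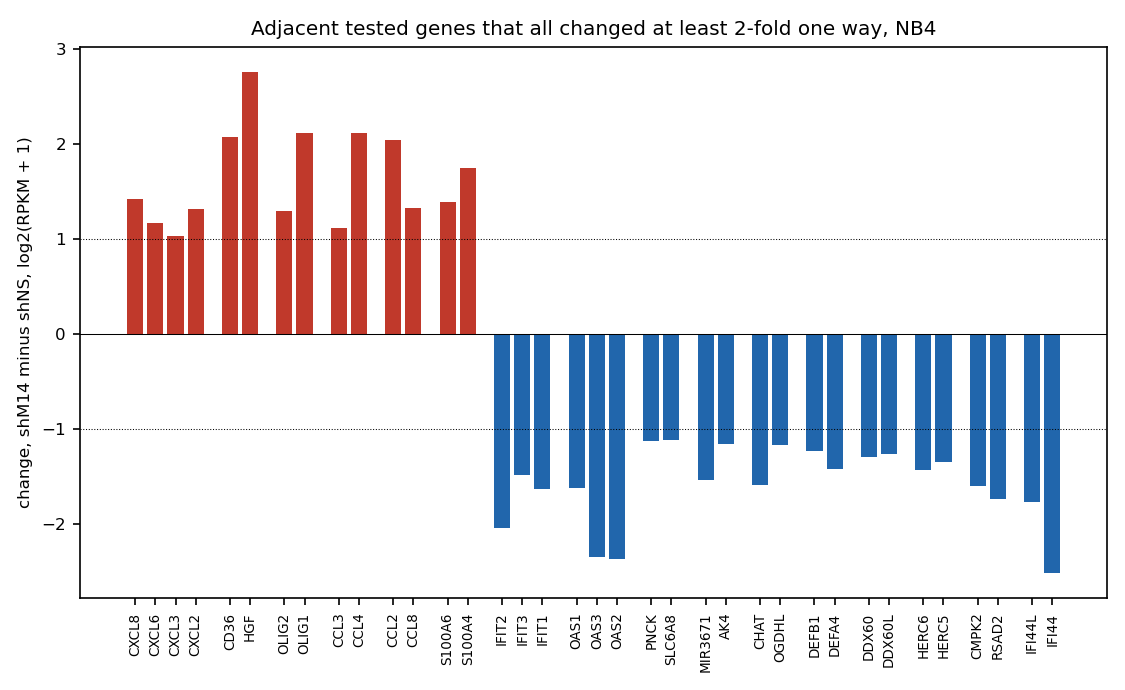
Change of each gene (shM14 minus shNS, log2(RPKM + 1)) in the 16 runs of adjacent tested genes that all changed at least 2-fold in one direction, red for higher and blue for lower, with runs separated by gaps. The bars range from 2.76 for HGF to -2.51 for IFI44.

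Transcript features were compared because m6A is written mostly within a short sequence context. The letters GGACT, a frequent form of that context, were counted in the longest annotated transcript of each gene, found for 11319 tested genes. The median was 0.905 sites per kilobase over all of these, 0.961 in the genes at least 2-fold higher and 0.961 in those at least 2-fold lower, so the medians of the groups were nearly equal. No such letters were present in 19.8% of the higher transcripts, 11.7% of the lower and 9.06% of all. The higher genes were shorter, with a median transcript of 2260 bases against 3437 bases for the lower and 3488 bases for all. The 91 higher genes include 8 snoRNA or miRNA entries, which are short, against 5 of the 104 lower and 261 of the 11531 tested. Their part in the share without the letters and in the median lengths was not tested. Counting letters does not show which sites carry the mark.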

How the data were processed

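Poly(A) RNA of NB4 cells was compared between 2 libraries with shM14 and 2 with shNS, taken from the cell line's table as the authors deposited it. The deposited RPKM values are reads per kilobase of gene model scaled to 1000000 assigned reads, a unit worked out from the values. The authors' table also holds signal columns (group means of reads scaled by library), a fold ratio, its log2 and p-values with their adjustment, per the file headers. For the aligner, genome build and strand of counting, nothing is given in the sources used here. Values of overlapping, antisense and near-identical genes are therefore less certain. RPKM and group means together gave whole reads for 100% of values within a tolerance of 0.01, and these gave the depth.

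The test took genes reaching 1 RPKM in 2 or more of the 4 libraries. Their log2(RPKM + 1) values went into a limma model (limma 3.58.1, R 4.3.3) with moderated variances, hairpin as the only term, and Benjamini-Hochberg adjustment over all tested genes at 0.05. Changes are shM14 minus shNS. Fit and read recovery were tested on simulated data. The other settings tried were all 8 libraries in 1 model, a replicate block, pseudocount 0.1, no filter, a filter of 5 RPKM, a variance trend, median-of-ratios scaling, voom on recovered reads and leaving out each library.

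The genes named are METTL14, the 40 largest changes in each direction past the threshold with at least 2-fold change, 2 RPKM in the higher group and an ordinary symbol, and up to 6 members of each list; others are named as chosen after their values were seen. Genes, lists and tests were chosen with earlier results of these data known. Some genes that met the rule are not reported here. Promoters come from RefSeq (GRCh38.p14), gene order from the same source, and transcripts from GENCODE v29, matched by gene ID; the files carry no coordinates. Tables and figures used Python 3.11.15, numpy 2.4.6, pandas 2.3.3 and matplotlib 3.10.9.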

Additional observations from a re-analysis of the deposited data

How the results depend on the processing

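The number of genes past the threshold varied more than the named genes did. With all 8 libraries in 1 model 758 genes were higher and 1011 lower, against 2553 and 2907 in NB4 alone, and leaving out 1 library gave 1334 to 2264 higher and 1719 to 2486 lower, lowest without knockdown replicate 1. The count of genes at least 2-fold higher was 60 with a filter of 5 RPKM, 167 with a pseudocount of 0.1 and 179 with voom on recovered reads, against 91. The count at least 2-fold lower was 257 with a pseudocount of 0.1 and 290 with voom, against 104. A smaller pseudocount enlarges changes of low genes by construction. The split of calls turned from 2553 higher and 2907 lower to 2434 and 2121 with the filter of 5 RPKM, and that of matrix genes from 17 and 10 to 7 and 9 with all 8 libraries. No gene named by the rule and past the threshold reversed. Genes named outside that rule were not part of this check. Of the 80 genes with the largest changes, 73 passed with all 8 libraries in 1 model, 68 of 68 tested passed with the filter of 5 RPKM, and 80 of 80 under each of the others.

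With the replicate block, 2433 genes were higher and 2808 lower, 91 and 105 at least 2-fold. All genes named by the rule kept their call, among 341 unchanged entries that also include list medians. The labels state no pairing, and the differences between replicates 1 and 2 correlated at 0.0797 between the groups over 11531 genes, although ELANE and APP followed the replicate number in both groups. With 2 libraries a group, the spread rests on few degrees of freedom, and genes at a few reads, among them the small RNA entries, are limited by depth.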

Other observations

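Of 63 tested glycosylation genes and sulfotransferases 21 were higher (33.3%) and 14 lower (22.2%), against 22.1% and 25.2% of all tested genes, and without knockdown replicate 1 these were 15 and 7. ST6GAL1, which adds terminal sialic acid, rose from 9.93 and 9.55 to 19.9 RPKM in both knockdown libraries (0.96). FUT4, the fucosyltransferase behind the CD15 epitope, fell from 25.7 and 26.0 to 15.3 and 15.5 RPKM (-0.71). Of 47 tested ion channels and pumps 17 were higher (36.2%) and 11 lower (23.4%), and 10 and 7 without knockdown replicate 1, with the potassium channel KCNH2 rising from 3.54 and 4.16 to 9.78 and 9.52 RPKM (1.14) and the proton channel HVCN1 falling from 55.0 and 53.5 to 33.8 and 33.4 RPKM (-0.68). Of 21 tested semaphorin, plexin and ephrin genes 10 were lower (47.6%) and 3 higher (14.3%), and 4 were lower without either knockdown library. SEMA4A fell from 5.77 and 5.84 to 2.93 and 2.83 RPKM (-0.81).

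Of 61 tested cyclins, cyclin-dependent kinases and their inhibitors 20 were higher (32.8%) and 13 lower (21.3%), against 22.1% and 25.2% of all tested genes. These were 10 and 5 without knockdown replicate 1, 10 and 6 without knockdown replicate 2, and 3 and 5 with all 8 libraries in 1 model. CCNA1, a cyclin of germ cells and myeloid leukaemia, rose from 11.2 and 9.85 to 21.1 and 21.9 RPKM (0.97), and CCND1, a cyclin of early cell cycle entry, fell from 8.26 and 7.99 to 4.65 and 5.04 RPKM (-0.64). Among non-coding transcripts, 5 of 39 tested were higher (12.8%) and 10 lower (25.6%), the latter close to the share of all tested genes. DANCR rose from 51.3 and 46.3 to 84.5 and 80.9 RPKM (0.75), while the snoRNA host transcripts SNHG6 and ZFAS1 fell by 0.57 and 0.54. Of 70 tested amino acid supply and tRNA synthetase genes 27 were higher (38.6%) and 12 lower (17.1%), and 13 and 5 without knockdown replicate 1. LARS, the cytosolic leucyl enzyme, fell from 94.6 and 93.7 to 63.4 and 64.3 RPKM (-0.55), and IARS2, the mitochondrial isoleucyl enzyme, from 45.2 and 48.4 to 25.8 and 26.0 RPKM (-0.83). MARS, the methionyl enzyme, rose from 80.4 and 86.2 to 124 RPKM in both (0.57).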
